A study of Homo sapiens with 38 samples.

Results

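The genes for the proteins of the cytosolic ribosome were read from RNA-seq of RKO, a line of human colorectal cancer cells. They were selected by symbol, as RPL or RPS with a number, RPLP0, RPLP1, RPLP2 and RPSA, leaving out pseudogenes, the RPS6 kinases and the Y-linked RPS4 copies. A mean of at least 1 FPKM over the 8 libraries was also required. FPKM gives fragments scaled to the exon length of the gene and to the mapped fragments of the library. Of 86 symbols that matched, 84 passed, out of 10865 genes with a mean of at least 1 FPKM (the expressed genes) and 25504 genes with a unique symbol. The rule left out RPL10L, with a mean of 0.242 FPKM, and RPL3L, listed at 0 in every library. The lowest members, all well above the threshold, were RPL7L1 with a mean of 29.0 FPKM, RPL39L with 40.5 FPKM and RPL26L1 with 51.6 FPKM. Because the level chose the members, the levels are given as a description and not as a finding.

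Cells received DMSO alone, NCD38, NCD38-β2P4 or NCD38-β2PIPP, the inhibitors at 2 μM by the labels of these libraries, all with 0.1% DMSO, and RNA was taken on day 30 or on day 4. The methods print the unit of the day 4 dose as mM. NCD38 inhibits the histone demethylase LSD1. In NCD38-β2P4 it is joined through β-alanine to a pyrrole polyamide, and in NCD38-β2PIPP an imidazole takes the place of 1 pyrrole. Each of the 8 conditions had 1 library, so no value between single conditions has a replicate. The polyamides without NCD38 and the histone modification data of the series were not analysed here.

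From the FPKM that single fragments give, depth was estimated at 12700000 to 23200000 fragments per library. No library spans the 2 days, and day cannot be told apart from culture, library preparation or sequencing. Whether both sets of libraries were aligned and annotated alike is not given in the sources used here, and the part of this in the values of single genes was not tested. The epithelial keratin KRT18 was at 76.2 to 121 FPKM and the intestinal factor CDX2 at 7.48 to 11.6 FPKM, but the epithelial markers CDH1, KRT19 and VIL1 were at or near 0. EPCAM was at 3.94 to 6.53 FPKM on day 30 and at 0.0922 to 0.867 FPKM on day 4. Of 8 markers of blood, endothelial and stromal cells, 3 were at 0 in every library, and the 8 summed to between 0.0129 and 0.0901 FPKM.

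The cytosolic ribosome joins a large and a small subunit, and each protein is normally present once per ribosome, apart from the stalk proteins RPLP1 and RPLP2. Most of the mRNAs begin with a C and a run of pyrimidines, the 5′ terminal oligopyrimidine (TOP) motif, through which mTORC1 and the binding protein LARP1 set their translation. Dividing cancer cells are known to spend a large part of their mRNA on these genes. A few have a second copy, a paralog, which is often restricted in tissue.

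The TOP motif could be looked up for 67 of the 84 genes, those with a start in the RefSeq promoter table (build GRCh38.p14). A start was counted as carrying it when its first base was C and at least 4 further bases were C or T, read on the gene's strand only. By this count 47 of the 67 genes (70.1%) had such a start, against 8.24% of 7267 expressed genes and 5.14% of all 27305 genes in that table. Without the paralogs it was 46 of 62 genes. Of the 20 genes without it, RPL3, RPL36AL, RPS7 and RPS15 start with C but have too short a run. The starts of the 3 genes with the highest mean level, of RPLP0 and RPS24, and of paralogs beside their parents are printed here, with 15 bases before and 15 bases from the annotated start, 5′ to 3′. Capitals mark the C at the start and the unbroken pyrimidine run that follows it.
RPS18, chr6:33272060-33272089, plus strand: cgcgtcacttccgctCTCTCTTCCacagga
RPLP1, chr15:69452803-69452832, plus strand: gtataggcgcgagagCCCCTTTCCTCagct
RPL35, chr9:124861943-124861972, minus strand: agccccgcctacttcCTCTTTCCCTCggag
RPLP0, chr12:120201097-120201126, minus strand: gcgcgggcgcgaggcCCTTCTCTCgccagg
RPS24, chr10:78033848-78033877, plus strand: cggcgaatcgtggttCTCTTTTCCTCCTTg
RPS27, chr1:153990747-153990776, plus strand: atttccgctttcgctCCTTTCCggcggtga
RPS27L, chr15:63157463-63157492, minus strand: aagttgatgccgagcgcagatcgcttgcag
RPL22, chr1:6199581-6199610, minus strand: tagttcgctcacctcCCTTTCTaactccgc
RPL22L1, chr3:170870181-170870210, minus strand: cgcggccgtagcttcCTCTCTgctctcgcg
RPL26, chr17:8383179-8383208, minus strand: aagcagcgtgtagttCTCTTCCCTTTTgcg
RPL26L1, chr5:172958714-172958743, plus strand: agtcttccaggggtcggcgaacgaaacgcg
RPL36A, chrX:101390996-101391025, plus strand: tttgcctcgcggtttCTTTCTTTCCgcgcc
RPL36AL, chr14:49620612-49620641, minus strand: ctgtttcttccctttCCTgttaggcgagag
RPL7L1, chr6:42879601-42879630, plus strand: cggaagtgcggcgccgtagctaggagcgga
The 4 parent genes shown begin with runs of 7 to 12 bases. Of the paralogs, RPL22L1 has a run of 6 bases and RPL36AL one of 3, while RPS27L, RPL26L1 and RPL7L1 do not begin with C. A missing match says only that these letters do not stand at the annotated start.

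In these libraries the ribosomal protein genes filled the top of the expression list. They made up 8 of the 10 genes with the highest mean FPKM, 42 of the first 50 and 68 of the first 100. The highest was RPS18, part of the head of the small subunit, with 17561, 14476, 16325 and 18344 FPKM on day 30 with DMSO, NCD38, NCD38-β2P4 and NCD38-β2PIPP. In the same order it had 10656, 8063, 7209 and 6723 FPKM on day 4, so all 4 day 30 libraries lay above all 4 of day 4. The stalk protein gene RPLP1 came second with a mean of 10188 FPKM, followed by RPL35 with 9553 FPKM. Apart from the paralogs, the lowest gene in every library was RPL22, at 236 to 283 FPKM on day 30 and 39.4 to 93.6 FPKM on day 4.

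The 84 genes together held 46.8%, 43.4%, 45.5% and 47.4% of the FPKM sum on day 30, in the order DMSO, NCD38, NCD38-β2P4 and NCD38-β2PIPP. The shares of day 4 were 35.9%, 33.0%, 30.0% and 31.1%. All 4 shares of day 30 were thus above all 4 of day 4. NCD38 and NCD38-β2P4 were below DMSO on both days. NCD38-β2PIPP was above DMSO on day 30 and below it on day 4. In bulk RNA a smaller number of cells of a kind and less RNA per cell cannot be told apart. Since FPKM is a share of the fragments of a library, a set this large also presses on the values of all other genes. Without paralogs, the 46 large subunit genes held 1.49 to 1.56 times the FPKM of the 31 small subunit genes on day 30 and 1.34 to 1.44 times on day 4. The large subunit therefore accounted for 25.6% to 28.1% of the sum on day 30 and for 17.5% to 20.3% on day 4.

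The genes were less even on day 4. The standard deviation of log2(FPKM + 1) across the 77 genes that are not paralogs was 1.04 to 1.09 in the libraries of day 30 and 1.21 to 1.75 in those of day 4, the largest with NCD38. The highest of the 77 was 58.1 to 67.3 times the lowest on day 30. On day 4 this fold was 165, 339, 115 and 84.2 in the same order of treatments. The order of the genes was kept within day 30, with Spearman's rho of 0.989 to 0.993 across the 84 genes for pairs of libraries, and was 0.936 to 0.992 within day 4. Between the DMSO libraries of the 2 days rho was 0.686. These are correlations across genes, which are not independent replicates.

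The first comparison was between the 2 DMSO libraries, which differ in the day of collection. A ratio here and below is the difference of log2(FPKM + 1), which understates the change of genes of low FPKM. The median ratio of day 30 to day 4 over the 84 genes was 0.53, against -0.02 over all expressed genes. Of the 84, 60 (71.4%) were higher on day 30, against 48.7% of all expressed genes. At least 2-fold higher were 24 of 84 (28.6%), with 24.1% over all expressed genes, and at least 2-fold lower were 4 of 84 (4.76%), with 17.3% over all. The share past 2-fold upward was thus close to that of all genes, and the share past 2-fold downward was smaller.

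A limma fit of all 8 libraries on day and treatment called 49 of the 84 higher on day 30 (58.3%), against 30.2% of all expressed genes, and 4 lower, against 31.7%. The adjusted p-values (Benjamini-Hochberg over 10865 genes, threshold 0.05) rest on 3 residual degrees of freedom and take the 4 treatments of a day as its replicates. In 49 genes all 4 day 30 libraries lay above all 4 of day 4 (29.5% over all expressed genes), in 6 genes they lay below (33.1%), and in 29 genes the days overlapped. With libraries centred on the median of all genes, 40 were called higher and 4 lower, against 30.9% and 34.3% of all genes. RPL39L, a member only through its day 4 level, is among the lower genes in each of these counts. Among genes with at least 1 FPKM in every library, which leaves out RPL39L, 49 were called higher and 3 lower, against 20.6% and 40.4% of the genes fitted.

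The 2 proteins that bind the 5S rRNA and, when free, hold back MDM2 both rose. RPL5 had 4424, 3309, 3976 and 4125 FPKM on day 30 and 693, 431, 918 and 1090 FPKM on day 4, in the order DMSO, NCD38, NCD38-β2P4 and NCD38-β2PIPP. The days did not overlap, and limma put RPL5 2.41 ± 0.20 higher on day 30 on the log2 scale (SE, adjusted p = 0.000599). RPL11 had 4787 to 5694 FPKM on day 30 and 1366 to 2490 FPKM on day 4, 1.41 ± 0.15 higher (adjusted p = 0.000972).

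In the stalk of the large subunit, which recruits the elongation factors, RPLP0 went the other way. It had 4528, 3987, 4507 and 4445 FPKM on day 30 and 9536, 11156, 7591 and 7053 FPKM on day 4. Every day 30 library was below every day 4 library, and limma called it lower by 0.99 ± 0.18 (the difference is -0.99, adjusted p = 0.00504). Its partners RPLP1 and RPLP2 overlapped between the days. RPLP1 was at 9661 to 11580 FPKM on day 30 and 7887 to 11914 FPKM on day 4, and RPLP2 at 5432 to 6402 and 4427 to 7603 FPKM.

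Among the small subunit proteins known for other roles, RPS6, the substrate of the S6 kinases, rose. It had 5484 to 6358 FPKM on day 30 and 2042 to 2728 FPKM on day 4 (log2 difference 1.27 ± 0.11, adjusted p = 0.000688). RPS27A, made as a fusion with ubiquitin, rose by a smaller amount (0.49 ± 0.16, adjusted p = 0.0438) and was no longer called with centred libraries (adjusted p = 0.108). RPSA, the laminin receptor, was at 2381 to 2505 FPKM on day 30 and 2439 to 3737 FPKM on day 4 and did not pass (adjusted p = 0.184). RPS19, mutated in Diamond-Blackfan anaemia, did not pass either (adjusted p = 0.215).

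For RPS3, which also takes part in DNA repair, the libraries held 4806 to 5429 FPKM on day 30 and 4177 to 5940 FPKM on day 4. RPS14, lost in the 5q- syndrome, was at 3360 to 4207 and 2891 to 4374 FPKM. RPL13A, part of an interferon-dependent repressor of translation, was at 4156 to 4703 and 4172 to 5896 FPKM, RPL10 at 1103 to 1231 and 1150 to 1683 FPKM, and RPL41, the shortest ribosomal protein, at 1106 to 1249 and 1208 to 1471 FPKM. In all 5 the ranges of the days overlapped, and none of them passed the fit.

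The highest ratios between the DMSO libraries belonged to RPL22L1 (3.71), RPS27L (3.67) and RPS24 (3.45). RPS24, which like RPS19 is mutated in Diamond-Blackfan anaemia, had 4091, 4010, 4069 and 4114 FPKM on day 30 and 373, 161, 660 and 829 FPKM on day 4. The treatments were close together on day 30 and far apart on day 4, where NCD38 was lowest. At the other end stood RPL39L (-6.43), and RPLP0 was at -1.07.

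RPL39L passed the level filter only through day 4, so it was left out of the ranking by adjusted p. Of the other members, RPS27L, RPL34, RPL36AL and RPL36A came first, and they were above 1 FPKM in every library. RPL34 had 1634 to 2401 FPKM on day 30 and 141 to 360 FPKM on day 4 (2.93 ± 0.17, adjusted p = 0.000399). RPL36A was 2.81 ± 0.18 higher on day 30 (adjusted p = 0.000413) and its paralog RPL36AL 1.79 ± 0.11 higher (adjusted p = 0.000399). RPS9 was also called lower (-0.58 ± 0.19, adjusted p = 0.0438), and with centred libraries it was no longer called while RPL7L1 was (adjusted p = 0.0158).

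GC content of the coding sequence, taken from GENCODE transcripts on GRCh37, moved with this difference. The 84 coding sequences ranged from 40.4% to 63.0% GC with a median of 50.8%, and across them Spearman's rho between GC and the DMSO ratio was -0.61. Over 9638 expressed genes with a coding sequence it was -0.64, and the same 2 libraries enter every point. The 42 ribosomal protein genes of lower GC had a median ratio of 1.16 and the 42 of higher GC one of -0.02. Over all expressed genes the fifth of lowest GC had a median of 1.45 and the fifth of highest GC one of -0.61. With the median of genes of similar GC subtracted, the median of the members was 0.62. The part of GC content in the single members was not tested.

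The paralogs did not follow their parents in the same proportion. RPL39L, a testis-enriched copy of RPL39 (GRCh37, chr3:186838736-186857284, minus strand), had 0.0506, 0.329, 0.443 and 0.402 FPKM on day 30, which is at most 6.80 estimated fragments over the whole transcript. On day 4 it had 89.7, 59.8, 88.7 and 84.2 FPKM. It was near 0 in all 4 libraries of day 30. In the 4 of day 4 it had 587 to 1153 estimated fragments, a level far below that of RPL39. It is a member only through its day 4 level, so its difference is given as a description with no test. Its parent RPL39, at the peptide exit tunnel, went the opposite way, from 2384 to 3744 FPKM on day 4 to 5971 to 7300 FPKM on day 30 (1.06 ± 0.16, adjusted p = 0.00278). RPL39L made up 2.32% to 2.51% of the summed pair on day 4.

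Annotated ribosomal protein pseudogenes, whose sequences are close to those of members, were looked at after the values were seen. Of 18 pseudogene entries with a mean of at least 1 FPKM, 9 had all day 4 libraries above all day 30 libraries and 4 the reverse, against 33.1% and 29.5% of all expressed genes. RPL13AP6 was at 0.142 to 0.811 FPKM on day 30 and 64.8 to 87.0 FPKM on day 4, and RPL13AP3 at 0.0877 to 0.237 and 18.2 to 25.5 FPKM. How the reads of near-identical copies were assigned in the 2 sets of libraries is not given in the sources used here, and its part in the values of RPL39L was not tested.

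RPS27L, a p53-induced copy of RPS27, had 171, 133, 172 and 183 FPKM on day 30 and 12.5, 6.98, 16.2 and 21.8 FPKM on day 4. All 4 day 30 libraries were far above day 4 (3.52 ± 0.19, adjusted p = 0.000380). RPS27 itself rose by 1.35 ± 0.17 (adjusted p = 0.00151), so that RPS27L was 1.48% to 1.81% of the pair on day 30 and 0.217% to 0.597% on day 4. RPL22L1 had 369, 327, 379 and 400 FPKM on day 30 and 27.4, 12.8, 35.5 and 54.2 FPKM on day 4 (3.63 ± 0.28, adjusted p = 0.000545). Its parent RPL22 rose by 2.00 ± 0.18 (adjusted p = 0.000729). RPL22L1 was therefore 56.6% to 59.5% of the pair on day 30 and 24.6% to 36.7% on day 4, and it was the only paralog above its parent in the day 30 libraries.

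RPL36AL was 24.6% to 28.0% of its pair with RPL36A on day 30 and 38.1% to 51.7% on day 4. RPL26L1, at 59.0 to 76.9 FPKM on day 30 and 25.4 to 42.9 FPKM on day 4, was 0.699% to 3.96% of its pair with RPL26. RPL7L1, a nucleolar assembly protein rather than a part of the mature ribosome, was at 9.66 to 21.95 FPKM on day 30 and 15.5 to 59.8 FPKM on day 4, while RPL7 was at 2970 to 3859 and 192 to 1474 FPKM. The muscle form RPL3L was listed at 0 throughout, and RPL10L, expressed in testis, reached 0.803 FPKM at most.

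The next question was how each inhibitor differed from the DMSO library of the same day. On day 30 the differences were small. The median ratio of the 84 genes was -0.18 for NCD38, -0.03 for NCD38-β2P4 and 0.01 for NCD38-β2PIPP, while all expressed genes had medians of 0.06, 0.06 and -0.01. With NCD38, 75 of 84 (89.3%) were lower, against 40.0% of all expressed genes. With NCD38-β2P4 it was 49 of 84 (58.3%), against 36.7%, and with NCD38-β2PIPP 40 of 84 (47.6%), against 52.8%. None of the 84 reached 2-fold with any inhibitor on day 30. With libraries scaled to the same FPKM sum, the median with NCD38 was -0.0825.

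RPL17, at the exit of the nascent chain, was lowest with NCD38 on day 30, with 3702 FPKM against 5190 FPKM with DMSO (ratio -0.49 ± 0.02, 95% counting half-width). The paralog RPL26L1 was highest (0.38 ± 0.18). RPL35 was lowest with NCD38-β2P4, at 12301 FPKM against 15145 FPKM (-0.30 ± 0.01). The highest with both conjugates was RPL39L, at under 1 FPKM in each library, which leaves no readable ratio. With NCD38-β2PIPP the lowest was RPL7L1, at 9.66 FPKM against 19.1 FPKM (-0.91 ± 0.28). The half-widths cover counting error only, rest on the estimated depth and on coding length, and had a median of 0.02 over the members in each comparison of day 30. They say nothing of how much a second culture would differ.

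On day 4 the members spread more widely. The medians were -0.21 for NCD38, -0.26 for NCD38-β2P4 and -0.36 for NCD38-β2PIPP, and those of all expressed genes were -0.21, 0.09 and 0.17. With NCD38, 58 of 84 (69.0%) were lower, near the 67.3% of all expressed genes. With each of the conjugates 62 of 84 (73.8%) were lower, against 33.9% of all genes for NCD38-β2P4 and 35.5% for NCD38-β2PIPP. At least 2-fold lower with NCD38 were 9 of 84 (10.7%), against 4.54% of all genes. At least 2-fold higher with NCD38-β2PIPP were 2 of 84 (2.38%), against 10.3% of all genes.

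Relative to the median of all genes, the median of the members on day 4 was -0.00479 for NCD38, -0.36 for NCD38-β2P4 and -0.54 for NCD38-β2PIPP. With the median of genes of similar GC subtracted, it was 0.0303 with NCD38, which like -0.00479 is close to 0. NCD38-β2PIPP gave -0.17 with libraries scaled to the same FPKM sum and -0.21 with the median of genes of similar transcript length subtracted. When the DMSO libraries of the days were exchanged, the 3 medians of day 30 became 0.40, 0.60 and 0.64 and those of day 4 became -0.81, -0.86 and -0.84, so that each inhibitor differed from that DMSO library as the days did.

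RPL7, an RNA-binding protein of the large subunit, was the most mobile member of day 4. It had 504 FPKM with DMSO and 192 FPKM with NCD38, but 957 FPKM under NCD38-β2P4 and 1474 FPKM under NCD38-β2PIPP. It was thus the lowest member with NCD38 (-1.39 ± 0.07) and the highest with both conjugates (0.92 ± 0.05 and 1.55 ± 0.04). In the day 30 libraries RPL7 had 2970, 3392, 3859 and 3301 FPKM, in the same order of treatments. RPL28 was highest with NCD38, at 3050 FPKM against 1938 FPKM with DMSO (0.65 ± 0.03). RPL9 was lowest with NCD38-β2P4 (1256 against 2208 FPKM, -0.81 ± 0.03), and RPS29 was lowest with NCD38-β2PIPP (2819 against 5473 FPKM, -0.96 ± 0.04).

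The 5S RNA binders and the stalk stood on opposite sides with NCD38 on day 4. RPL5 (-0.69) and RPL11 (-0.64) were lower, and RPLP0 (0.23), RPLP1 (0.18) and RPLP2 (0.55) were higher. With NCD38-β2PIPP the signs were the reverse for RPL5 (0.65), RPL11 (0.23), RPLP0 (-0.44), RPLP1 (-0.41) and RPLP2 (-0.23). With NCD38-β2P4 the split did not hold, since RPLP2 (0.07) was on the side of RPL5 (0.40) and RPL11 (0.05), with RPLP0 (-0.33) and RPLP1 (-0.23) lower. On day 30 all 5 were lower with NCD38. Coding GC was lower in RPL5 (44.3%) and RPL11 (50.7%) than in RPLP0 (54.2%), RPLP1 (55.0%) and RPLP2 (56.2%).

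Across the 84 genes, GC content and the ratio on day 4 had a Spearman's rho of 0.74 for NCD38, -0.52 for NCD38-β2P4 and -0.66 for NCD38-β2PIPP. Over all 9638 genes with a coding sequence it was 0.55, -0.51 and -0.65. With NCD38, 38 of the 42 members of lower GC were lower than DMSO and 20 of the 42 of higher GC. With NCD38-β2PIPP, it was 20 of 42 of lower GC and 42 of 42 of higher GC. Such counts by GC are not given for all expressed genes. Median ratios with NCD38-β2PIPP were 0.04 for members of lower GC and -0.51 for those of higher GC. Over all expressed genes, the groups of lowest and highest GC used above had 0.78 and -0.08. For NCD38 the members had -0.62 and 0.02, and all expressed genes -0.37 and 0.17. The GC ranges of these groups differ. On day 30 rho across the members was -0.16, -0.48 and -0.39 for NCD38, NCD38-β2P4 and NCD38-β2PIPP. The 3 comparisons of a day share their DMSO library, so these values are not independent of each other, and the part of GC content in them was not tested.

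A ± from here on is the SE of the limma fit, not the counting half-width. For the inhibitors the same fit called none of the 84 with any inhibitor over both days. It called 1 higher and 3 lower of all 10865 genes with NCD38 (0.00920% and 0.0276%), 1 and 1 with NCD38-β2P4 (0.00920% each) and 0 and 2 with NCD38-β2PIPP (0% and 0.0184%). At an unadjusted p under 0.05 were 5 members with NCD38 and 0 with each conjugate, against 1.33%, 0.295% and 0.571% of all genes. These 5 were RPL34 (-0.76 ± 0.24), RPS7 (-0.74 ± 0.25), RPL4 (-0.46 ± 0.16), RPL23 (-0.68 ± 0.25) and RPS25 (-0.54 ± 0.21), each with an adjusted p of 1. That count of 5 was 0 with centred libraries, against 1.20% of all genes. It was not stable when 1 library was left out, which left 1 library for a treatment. Here the days serve as replicates of a treatment. The fit takes out the mean difference between the days, and its error comes from how treatment differences varied between the days.

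For the conjugates the smallest p belonged to RPL27A, at -0.34 ± 0.18 with NCD38-β2P4 (95% interval -0.78 to 0.10) and -0.31 ± 0.18 with NCD38-β2PIPP (95% interval -0.75 to 0.13). Next were RPL35 (-0.55 ± 0.30 and -0.51 ± 0.30) and, with NCD38-β2P4, RPL37 (-0.28 ± 0.17), RPS10 (-0.35 ± 0.21) and RPL29 (-0.36 ± 0.23). With NCD38-β2PIPP they were followed by RPS27L (0.43 ± 0.27), RPS10 (-0.33 ± 0.21) and RPS29 (-0.40 ± 0.29). Lower than DMSO on both days were 50 of the 84 with NCD38 (59.5%, against 23.2% of all expressed genes), 39 with NCD38-β2P4 (46.4%, against 16.6%) and 31 with NCD38-β2PIPP (36.9%, against 18.4%). On both days 1 member was higher for NCD38 (14.9% of all genes), 12 for NCD38-β2P4 (44.8%) and 13 for NCD38-β2PIPP (29.1%).

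The conjugates differ from NCD38 by the linker and polyamide, and they were compared directly at the same dose and day. On day 30 the median difference of the members was 0.17 for NCD38-β2P4 minus NCD38 and 0.23 for NCD38-β2PIPP minus NCD38. Higher than with NCD38 were 80 of 84 with NCD38-β2P4 (95.2%, against 51.7% of all expressed genes) and 77 with NCD38-β2PIPP (91.7%, against 39.5%). The medians of all expressed genes were 0.01 and -0.07. On day 4 the medians of the members were -0.07 and -0.03 and those of all genes 0.30 and 0.45, with at least 2-fold higher values for 12 members with NCD38-β2P4 (14.3%, against 17.1%) and 15 with NCD38-β2PIPP (17.9%, against 30.7%). The library with NCD38 is shared by the 2 differences of a day.

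Between the conjugates, which differ by 1 ring, the medians were 0.05 on day 30 and -0.04 on day 4 for NCD38-β2PIPP minus NCD38-β2P4. Higher on day 30 were 58 of 84 (69.0%, against 36.6% of all expressed genes), and lower on day 4 were 50 of 84 (59.5%, against 35.2%). RPL7L1 differed most on day 30 (-1.11) and RPL7 on day 4 (0.62). Over both days limma called 0 of 84 in each of the 3 pairs of compounds, against 0.00920%, 0.0184% and 0.0276% of all genes. Unadjusted p was under 0.05 for 5, 15 and 0 members (3.24%, 6.37% and 0.313% of all genes), and the smallest adjusted p was 0.710, 0.530 and 1. With centred libraries the counts of 5 and 15 were 0 and 4, against 3.85% and 7.86% of all genes. They were not stable when 1 library was left out, which left 1 library for a treatment. A p above the threshold does not show that the compounds act alike.

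Genes with and without the TOP motif were also set side by side. Between the DMSO libraries the 47 genes with the motif had a median ratio of 0.54 and the 20 without it one of 0.69. On day 4 the medians were -0.16 and -0.27 for NCD38, -0.29 and -0.14 for NCD38-β2P4 and -0.42 and -0.17 for NCD38-β2PIPP. On day 30 they were -0.19 and -0.15 for NCD38 and -0.04 and 0.02 for NCD38-β2P4.

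Other genes of the translation machinery were counted in the same fits, and no gene of these lists was called with any inhibitor. Of 18 expressed translation factors and related genes with TOP mRNAs, 8 rose on day 30 and 4 fell, against 30.2% and 31.7% of all genes. EIF3E, a subunit of the initiation factor that binds the small subunit, had 832 FPKM with DMSO on day 30 and 16.3 FPKM on day 4 (5.32 ± 0.32, adjusted p = 0.000399). EEF2, the translocase, had 1601 and 3569 FPKM (-1.33 ± 0.15, adjusted p = 0.00123). FAU, made as a fusion that releases RPS30 and outside the symbol rule, was at 1206 to 2392 FPKM and did not pass (adjusted p = 0.0601).

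In the list for rRNA synthesis and ribosome assembly, 24 of 55 rose and 14 fell, against the same shares of all genes. NOP58, of the methylating snoRNPs, rose by 4.46 ± 0.31 (adjusted p = 0.000481), and EIF6, which keeps the subunits apart, fell (-1.32 ± 0.15, adjusted p = 0.00134). Of 15 regulators around mTORC1 and MYC, 2 rose and 6 fell, a smaller share upward than over all genes. The S6 kinase genes went in opposite directions, RPS6KB1 by 1.30 ± 0.20 (adjusted p = 0.00283) and RPS6KB2 by -1.48 ± 0.15 (adjusted p = 0.000929). Among 76 mitochondrial ribosomal proteins, 33 rose and 18 fell, again against 30.2% and 31.7%, and between the DMSO libraries their ratio had a median of 0.12, from -1.97 for MRPL37 to 3.52 for MRPL47.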

How the data were processed

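RNA-seq of RKO cells in 8 conditions was used, with 1 library each. The authors prepared stranded mRNA libraries, aligned with TopHat according to their methods and deposited FPKM values from Cufflinks, while the submitters' processing notes also list HISAT2 and the build hg19. The annotation is not given in the sources used here. No counts stand behind these FPKM in the table, so a listed 0 may be a failed estimate. Entries with a repeated name (90) were left out. Some single genes are not reported here. Groups came from the sample titles.

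Python 3.11.15 with pandas was used for log2(FPKM + 1) differences, and limma 3.58.1 with trend for fits on day and treatment, adjusted by Benjamini-Hochberg. The code was tested on simulated data. Coding sequences were matched in GENCODE release 44 for 9638 of 10865 expressed genes and all 84 members. The depth estimate used low FPKM steps, worth 1 fragment, of transcripts over 2000 nt.

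The members and gene lists were chosen with earlier results of these data known. Genes named were members chosen by function, paralogs with parents, the extremes of level, ratio and adjusted p, and the extremes of other lists. Differences between compounds, the TOP motif and pseudogenes were added after values had been seen. Alternatives changed the pseudocount, scaling, GC, length, members, comparator and libraries.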

Additional observations from a re-analysis of the deposited data

Results flagged for a closer look

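With NCD38-β2PIPP, the median log2 ratio of the 84 ribosomal protein genes to DMSO had the opposite sign on the 2 days, 0.0102 on day 30 and -0.36 on day 4. With 1 library per condition the difference between the days was not tested. The sign of the median on day 30 is that of a value close to 0.

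RPL7L1 with NCD38-β2PIPP was lower than DMSO on day 30 (-0.91, 9.66 against 19.1 FPKM) and higher on day 4 (0.58, 59.8 against 39.7 FPKM). The difference was not tested. No other of the 84 genes was past 0.5 in opposite directions on the 2 days with any of the 3 inhibitors.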

How the results depend on the processing

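Of 62 alternatives for the 7 median ratios, 47 moved the median by at most 0.1. Scaling to the same FPKM sum gave -0.0825 for NCD38 on day 30 and -0.17 for NCD38-β2PIPP on day 4. Scaling without the ribosomal protein genes gave 0.73 between the DMSO libraries and, on day 4, -0.33 for NCD38. Centring on all genes gave -0.00479 for NCD38 and -0.54 for NCD38-β2PIPP on day 4. Subtracting the trend with GC content gave 0.0303 and -0.52 for these, and with transcript length -0.21 for NCD38-β2PIPP. With the DMSO libraries of the days exchanged, the medians were 0.40, 0.60 and 0.64 on day 30 and -0.81, -0.86 and -0.84 on day 4 for NCD38, NCD38-β2P4 and NCD38-β2PIPP. The cause was not tested.

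Over genes with a RefSeq protein only, the share of the FPKM sum was 50.9% with NCD38-β2PIPP on day 30 and 38.8%, 36.3%, 34.5% and 34.1% on day 4 in the order of treatments. Leaving out 1 library at a time, 44 to 55 members were called between the days against 53 with all libraries, while the share over all genes went from 42.0% to 65.4% against 61.9%. Without the treatment term 57 members were called, against 67.0% of all genes. A library left without a partner was assumed to vary like the others. The inhibitor fits called 0 members under every alternative. Alternative values for named members moved by at most 0.1 in 264 cases and by more in 50. The sign changed in 9 cases, none of which was past 2-fold.

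The labels number no replicates within a condition, so single cultures could not be paired. Day and treatment enter the fits as terms, so the day contrast compares the days within each treatment. Depth limits the values of RPL39L on day 30.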
